A study of Mus musculus with 9 samples.

Results

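The 3 nCounter libraries described as control show which immune transcripts the ileal epithelium of male NOD mice of the control group held at postnatal day 23. They are 3 of the 9 libraries of the series and were chosen by that description alone. NOD is an inbred mouse strain that develops autoimmune diabetes spontaneously. The other 6 libraries come from male NOD mice of the same age and cell type, 3 labelled 1PAT antibiotics and 3 labelled cecal material transfer. All 9 carry the same batch number, and the labels do not say whether 1 library is 1 mouse, so the spread below is that between libraries and may be technical. The panel holds 547 endogenous probes, which were ranked by CPM, a probe's count scaled to 1e+06 endogenous plus housekeeping counts of its library, and averaged over the 3 control libraries.

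The small intestinal epithelium is a single layer of absorptive and secretory cells that separates the gut contents from the tissue. Absorptive cells carry IgA into the lumen with the polymeric immunoglobulin receptor, and secretory cells release mucus and antimicrobial proteins. Intraepithelial lymphocytes, mostly cytotoxic T cells, lie between the epithelial cells and are held there by integrins and drawn in by the chemokine CCL25. Preparations of epithelial cells therefore carry RNA of these lymphocytes as well. Nucleated cells display peptides on MHC class I, which needs the light chain B2M, the proteasome and the TAP transporter, while MHC class II is loaded with the help of the invariant chain CD74.

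The promoters of 4 abundant transcripts are shown, since they stand for the epithelial, lymphocyte, MHC class I and MHC class II signals described next. They are RefSeq windows from 250 bases before to 50 bases after the gene start, on GRCm38.p6, the C57BL/6J reference and not the NOD genome. B2m lies at chr2:122147437-122147736 on the plus strand, Pigr at chr1:130826434-130826733 on the plus strand, Gzma at chr13:113100932-113101231 on the minus strand and H2-Eb1 at chr17:34305617-34305916 on the plus strand. Capitals mark matches, on either strand, to 2 copies of GAAA with any 2 bases between them, a repeat like those that interferon regulatory factors bind, and to CCAAT, the box bound by NF-Y. Matches to the 2 patterns did not overlap in these windows.
B2m: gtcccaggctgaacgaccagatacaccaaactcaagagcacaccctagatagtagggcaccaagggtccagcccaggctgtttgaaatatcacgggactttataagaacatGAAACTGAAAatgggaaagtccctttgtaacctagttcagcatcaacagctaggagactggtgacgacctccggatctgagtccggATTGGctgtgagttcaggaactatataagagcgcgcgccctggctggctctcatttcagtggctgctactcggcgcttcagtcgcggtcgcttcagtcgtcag
Pigr: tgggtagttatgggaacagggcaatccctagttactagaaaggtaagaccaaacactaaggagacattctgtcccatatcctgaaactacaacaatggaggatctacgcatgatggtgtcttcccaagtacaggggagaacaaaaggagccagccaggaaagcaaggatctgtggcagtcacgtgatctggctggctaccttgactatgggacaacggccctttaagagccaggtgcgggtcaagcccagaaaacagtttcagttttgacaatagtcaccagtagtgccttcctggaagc
Gzma: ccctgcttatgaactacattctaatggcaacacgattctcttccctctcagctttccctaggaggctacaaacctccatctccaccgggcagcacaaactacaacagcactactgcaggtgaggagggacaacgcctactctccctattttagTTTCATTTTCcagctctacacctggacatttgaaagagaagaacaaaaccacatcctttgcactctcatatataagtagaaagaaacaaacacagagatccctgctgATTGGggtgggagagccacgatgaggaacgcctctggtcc
H2-Eb1: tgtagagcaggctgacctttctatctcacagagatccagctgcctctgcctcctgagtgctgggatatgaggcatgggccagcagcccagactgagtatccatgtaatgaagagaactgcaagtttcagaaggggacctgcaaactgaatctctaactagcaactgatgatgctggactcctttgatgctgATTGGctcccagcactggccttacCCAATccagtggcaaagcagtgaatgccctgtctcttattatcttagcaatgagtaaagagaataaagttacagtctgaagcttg
B2m and Gzma held 1 repeat of the interferon type each, which starts 139 bases before the start of B2m and 97 bases before that of Gzma. H2-Eb1 held 2 CCAAT boxes, B2m 1 and Gzma 1, the last after the gene start, while neither pattern occurred in the Pigr window. Of 32841 mouse promoter windows of this length, 3.44% held the repeat and 37.4% the CCAAT box. Among the panel's probes with a window, the repeat was in 2 of 12 (16.7%) with 10000 CPM or more. These 2 are B2m and Gzma, shown above. The repeat was in 9.09%, 5.31% and 6.03% of the classes below in falling order, and in 6 of 108 (5.56%) at background. The CCAAT box was in 33.3%, 36.4%, 31.9%, 21.6% and 35.2% of the same 5 classes. A match describes these letters and no binding.

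The 3 control libraries held 417678, 613925 and 517969 counts over endogenous and housekeeping probes in replicates 1, 2 and 3. A probe was taken as above background where its count exceeded the mean plus 2 SD of the library's 8 negative-control probes, a limit of 7.74, 17.7 and 8.001 counts. By that measure 449, 369 and 418 endogenous probes were above background. Replicate 2, with the most counts, had the fewest, and it also had the highest negative-control mean, at 8.38 counts against 4.13 in replicate 1 and 3.25 in replicate 3. Spike-in totals were 3437, 7121 and 24369 counts, a range of 7.09 times, so the CPM compare the makeup of the RNA and not its amount per reaction. Replicate 3 stood apart from the other 2 control libraries in makeup, and some results are also given without it.

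Of the 547 endogenous probes, 349 were above background in all 3 control libraries, 59 in 2, 71 in 1 and 68 in none. The 139 probes above background in at most 1 library, 25.4% of the panel, are called at background and all others detected. That share is the one to set beside the counts of detected and background members of the lists below. Of the remaining probes, 15 had a mean of 10000 CPM or more, 82 had 1000 to 10000, 164 had 100 to 1000 and 147 had less than 100. Without replicate 3, 12 had 10000 CPM or more. Abundance was steep. The 15 probes of the top class, 2.74% of the panel, took 48.9% of all counts, the next class 22.6%, that of 100 to 1000 CPM 6.04% and that under 100 CPM 0.745%. The first 3 probes alone took 25.8% and the first 10 took 43.4%, while the probes at background together took 0.184%. The plot of level against rank shows this as a steep head and a long, nearly straight decline on the log scale. Each molecule is counted once, whatever its length, but probes differ in how well they capture their target, so the order between probes is approximate.

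**Figure D1:**
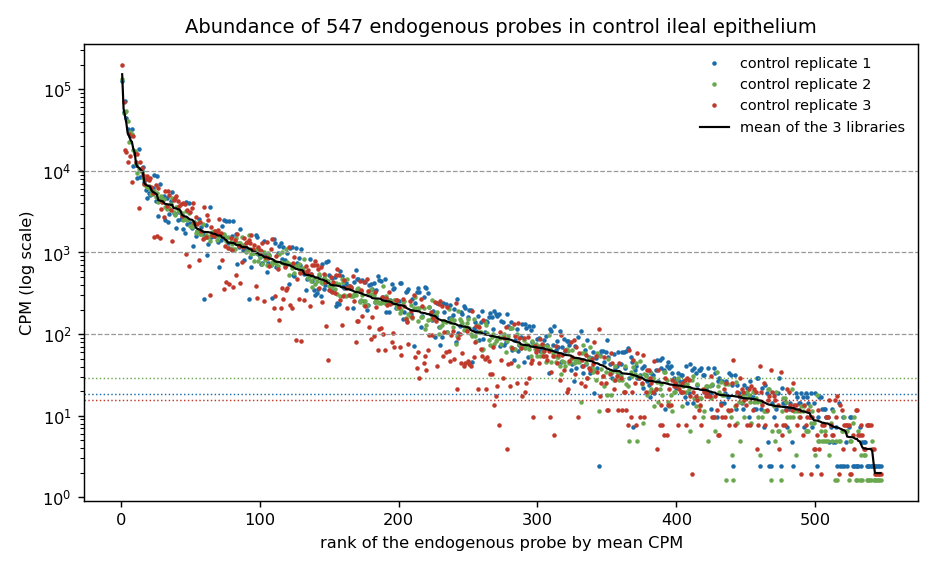
CPM of each endogenous probe (log scale) against its rank by mean CPM, with points for control replicates 1, 2 and 3 and a line for their mean. Dashed lines mark the class limits at 10000, 1000 and 100 CPM and dotted lines the background limit of each library. The red points of replicate 3 scatter most widely around the mean.

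The class limits cut through a continuous scale. Xbp1, a transcription factor of secretory cells, stood just inside the top class at 10044 ± 589 CPM, and H2-Eb1 just outside at 9462 ± 1517 CPM (SD, n = 3). At the limit of 1000 CPM stood Ptpn6 inside with 1006 ± 624 CPM and Ccr9 outside with 982 ± 646 CPM. At 100 CPM stood Crlf2 inside with 100.001 ± 43.4 CPM and Cd27 outside with 99.1 ± 46.1 CPM. In each pair the gap was smaller than the spread among the libraries.

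The most abundant transcript was B2m, which encodes the invariant partner of class I heavy chains, with 125834, 132679 and 199651 CPM in replicates 1, 2 and 3, or 15.3% of counts on average. It ranked first in every control library, and replicate 3 was well above the other 2. Pigr, the receptor that carries IgA across the epithelium, was second with 52809, 51143 and 70361 CPM. Then came 3 transcripts of cytotoxic lymphocytes. Ccl5, a chemokine stored by memory and intraepithelial T cells, had 70947, 52589.5 and 18175 CPM. Gzma had 44491, 53995 and 17231 CPM and Gzmb 32365, 41034 and 12725 CPM, both granule proteases of killer cells. All 3 were lowest in replicate 3, by a factor of 2 or more against either other library.

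Cd74, the invariant chain of MHC class II, followed with 29999, 22449 and 27915 CPM and little spread. Itln1, a lectin of goblet and Paneth cells, had 26609, 29952 and 15209 CPM and was lowest in replicate 3. Cd7, a T cell and NK cell surface protein, had 32781, 28070.2 and 7275 CPM. Ccl25, the epithelial chemokine for lymphocytes bearing CCR9, had 11322, 18085 and 26532 CPM and went the other way, highest in replicate 3. The rest of the top class were the cytokine Mif at 16824 ± 763 CPM, the sialomucin Cd164 at 12216 ± 524 CPM, the inflammatory caspase Casp1 at 11172 ± 4181 CPM, the T cell receptor chain gene Cd3e at 10979.9 ± 7599.8 CPM, the transferrin receptor Tfrc at 10468 ± 2148 CPM and Xbp1. So 5 of the 15 are genes of T or cytotoxic cells, 3 are epithelial markers and 2 belong to antigen presentation. The 10 most abundant probes were the same without any 1 of the 3 libraries. Without replicate 3, Ccl5 stood above Pigr, at 61768 against 51976 CPM.

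Below the top class the first 30 also held genes of cell junctions and of leukocytes at large. Ctnnb1, which encodes beta-catenin of cell junctions and Wnt signalling, had 5341, 6608 and 7665 CPM. Arhgdib, a GTPase regulator of blood cells, had 8976, 5711 and 1556 CPM, and Ptprc, the pan-leukocyte marker CD45, 6895, 4628 and 1490.4 CPM. Both leukocyte genes were lowest in replicate 3, as the cytotoxic genes were, and Ctnnb1 was highest there.

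**Figure D2:**
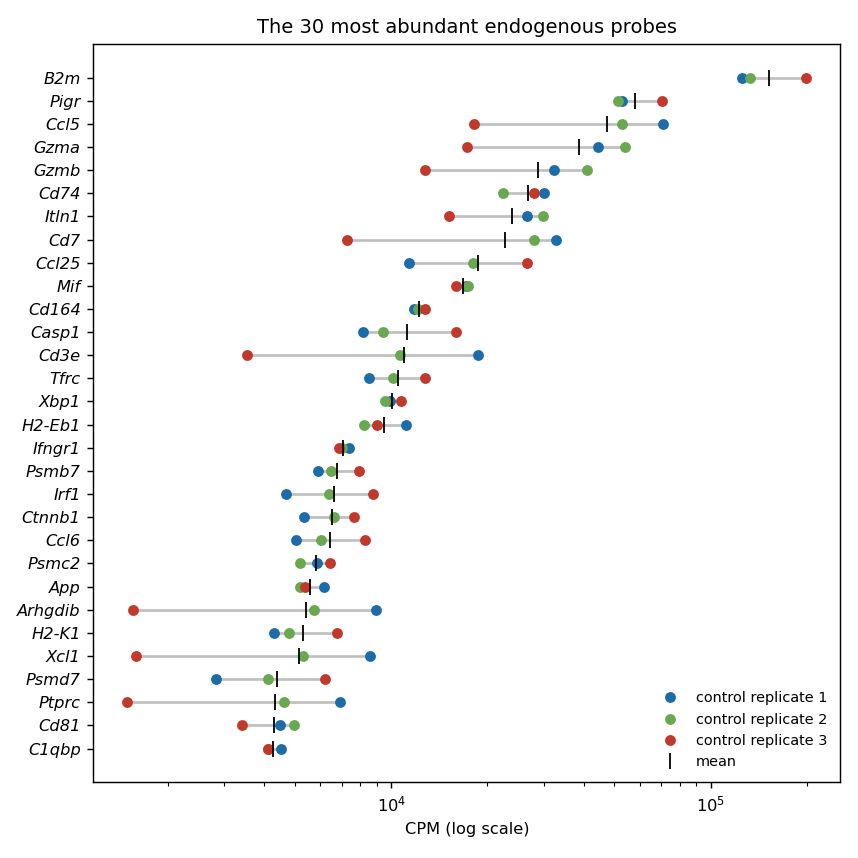
CPM (log scale) of the 30 most abundant endogenous probes, one row per probe, with a point for each control replicate, a grey line from the lowest to the highest and a tick at the mean. Ccl5, Cd7, Cd3e, Arhgdib, Xcl1 and Ptprc are far lower in replicate 3, while Mif, Cd164, Xbp1, Ifngr1 and C1qbp hardly differ.

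The labelled cell type was checked against marker lists. Of 7 epithelial markers on the panel 6 were detected, and they summed to 91925, 100977 and 115254 CPM. Besides Pigr, Itln1 and Ccl25 these were Il18, an epithelial alarmin, at 1778 ± 981 CPM, Tnfrsf11a at 232 ± 27.4 CPM and the defensin Defb1 at only 20.6 ± 2.84 CPM. Muc1 was at background with 13.8 CPM. The 22 markers of CD8 and cytotoxic intraepithelial lymphocytes summed to 163822, 159189 and 52372 CPM. Markers of the labelled cell type were thus present in every control library. The lymphocyte sum was above the epithelial sum in replicates 1 and 2 and below it in replicate 3. In bulk RNA, fewer cells of a type and less RNA per cell cannot be told apart.

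Cytotoxic markers were led by the genes above and by Xcl1, a chemokine of activated killer cells, with 8574, 5292 and 1587 CPM. Klrd1, the CD94 chain of NK-type receptors, had 1241 ± 623 CPM, the chemokines Ccl3 and Ccl4 had 1519 ± 659 CPM and 736 ± 333 CPM, and Cd160, a receptor of intraepithelial lymphocytes, had 525 ± 308 CPM. Cd8a, the CD8 alpha chain, measured 356 ± 134 CPM, whereas Cd8b1, the beta chain, was at background with 20.8 CPM. The other members at background were Klrc2, Tbx21 and Cd244. Of the 16 members above background in all libraries, 15 were lowest in replicate 3 and none was highest there. Of all 349 probes above background in every control library, 183 (52.4%) were lowest in replicate 3 and 126 (36.1%) were highest there. Ifng, the cytokine interferon gamma, was modest at 206, 121 and 44.4 CPM.

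T cell markers on the panel numbered 19, with sums of 58892, 44277 and 12906 CPM. Of these 15 were detected and 4 at background, beside 25.4% of all endogenous probes at background. Cd3d, a further chain of the T cell receptor complex, had 4125, 3186 and 952 CPM, and Cd247, its zeta chain, 1109, 634 and 83.0 CPM. Both were lowest in replicate 3. The helper co-receptor Cd4 was low at 103 ± 76.8 CPM. The regulatory T cell factor Foxp3, with 8.68 CPM, was at background, as were Zap70, Cd6 and Lcp2. Of the 13 members above background in all libraries, 11 were lowest in replicate 3, beside 52.4% of all such probes.

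B cell and plasma cell genes were present at a lower level, with 16 of 17 detected and sums of 7970.3, 4898 and 2670.04 CPM. Blnk, an adaptor of B cell receptor signalling, was the most abundant at 1439 ± 212 CPM, with little spread. Cd79b, a chain of the B cell receptor complex, had 2413, 1114 and 373 CPM, and Ms4a1, which encodes CD20, 1293, 743 and 295 CPM. Prdm1, a factor of plasma cells that epithelium of the immature gut also expresses, had 421 ± 95.4 CPM. All 14 members above background in all libraries were lowest in replicate 3, beside the same 52.4%.

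Macrophage and monocyte markers numbered 20, of which 11 were at background, among them Cd163, Msr1, Marco and Ccr2. Those detected were led by Tyrobp, a signalling adaptor also used by NK-type receptors, at 1920.1 ± 961 CPM, and Cd14, the lipopolysaccharide co-receptor, at 1913 ± 383 CPM. The macrophage-defining Csf1r had 54.8 ± 16.8 CPM and C1qa 31.2 ± 5.54 CPM. Dendritic cell markers had 9 of 11 detected, led by Bst2 at 719 ± 79.0 CPM and Irf8 at 530.5 ± 74.1 CPM, which other cells also express, while Itgax had 88.8 ± 56.5 CPM and Xcr1 was at background. Granulocyte and mast cell markers had 7 of 13 at background. Kit led them with a mean of 615 CPM, then came Fcer1g with 124 CPM and Fcer1a with 97.9 CPM, and S100a8 had 85.9 ± 54.3 CPM. Endothelial and stromal markers had 6 of 11 at background, with Pecam1 at 326 ± 166 CPM. The sums over the last 2 lists were 1062 and 784 CPM on average, against 102718 CPM for epithelial markers. In replicates 1, 2 and 3 the macrophage list summed to 6584, 5869 and 4052 CPM and the dendritic list to 2813, 2150 and 1682 CPM. The granulocyte list summed to 1549, 1153 and 485 CPM and the endothelial list to 1104, 746 and 502 CPM. These lists were thus lowest in replicate 3, as the lymphocyte lists were.

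NK cell receptors were carried by 1 probe. Klra5, a Ly49 family receptor, had 5535, 4615 and 1371 CPM, and the next, Klrb1, 287 ± 176 CPM. Of the 11 probes 6 were at background, among them Klra1, Klra4, Klra7, Klra8 and Klra21. Ly49 genes are near copies of each other and differ between strains, so which member a probe counted is uncertain.

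**Figure D3:**
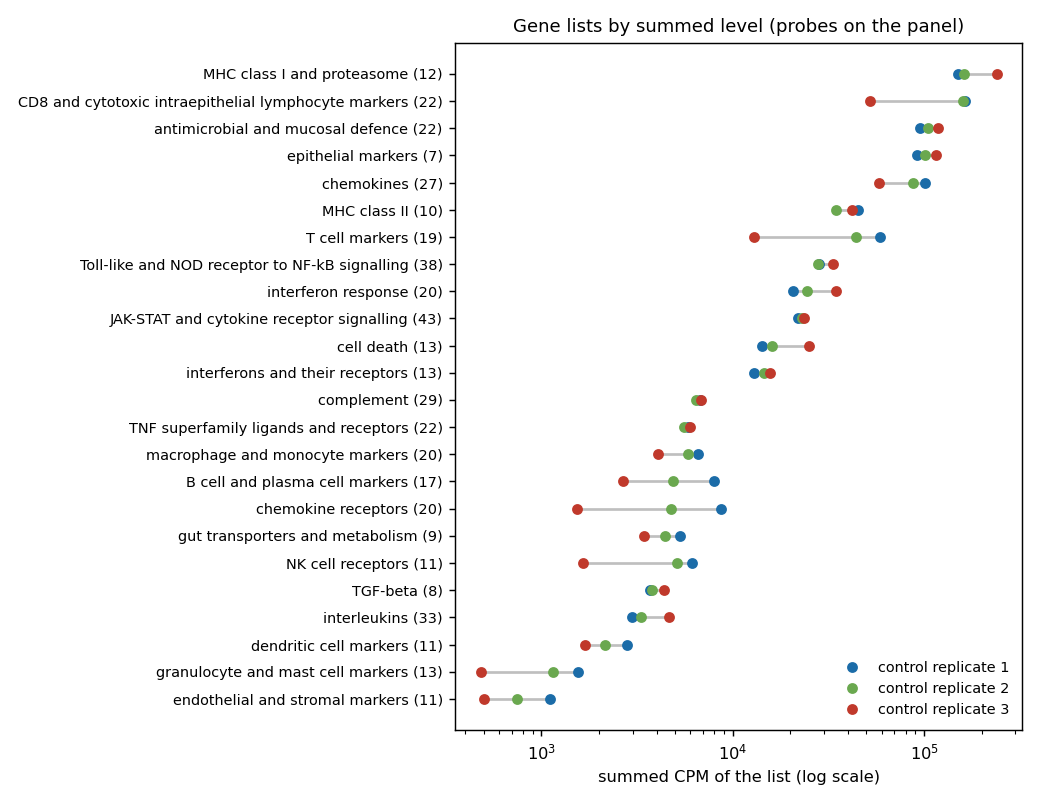
Summed CPM (log scale) of 24 gene lists, with the number of panel probes in brackets and a point for each control replicate. MHC class I, epithelial and interferon lists sit highest in replicate 3, while the T cell, cytotoxic, B cell, NK receptor and chemokine receptor lists sit lowest there. The macrophage, dendritic cell, granulocyte, endothelial, chemokine and gut transporter lists are lowest there too.

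Genes of MHC class I presentation and the proteasome made up 18.4% of counts, most of it B2m. Of 12 on the panel 11 were detected. H2-K1, a class I heavy chain, had 4281, 4790.5 and 6757 CPM. The constitutive proteasome subunit Psmb7 had 6754 ± 1032 CPM. The interferon-inducible subunits Psmb9 and Psmb10 had 2389, 3510.2 and 5742 CPM and 2504, 3627 and 5637 CPM, more than 2 times as much in replicate 3 as in replicate 1. Tap1, the peptide transporter, was far lower at 305 ± 115 CPM, as was its partner Tapbp at 491 ± 135 CPM. H2-Q10, a class I gene known from liver, was at background with 11.8 CPM. Of the 11 detected, 10 were highest in replicate 3, beside 36.1% of all probes above background in every control library. Without replicate 3 the list summed to 155914 CPM on average, against 183789 CPM with it.

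MHC class II genes were detected in 9 of 10 cases. After Cd74 came H2-Eb1, the beta chain of I-E, with 11152, 8219 and 9016 CPM, then the peptide exchange factor gene H2-DMa with 2014 ± 595 CPM. The I-A chains H2-Aa and H2-Ab1 had 872 ± 411 CPM and 195 ± 61.0 CPM. Ciita, the factor that switches on class II genes, had 208, 295 and 519 CPM, highest in replicate 3. H2-DMb2 went the other way with 1453, 775 and 209 CPM. NOD mice are known not to make the I-E alpha chain. Its probe, H2-Ea-ps, counted 8, 14 and 10 molecules, next to background limits of 7.74, 17.7 and 8.001 counts, so it was at most marginally above background. The list's sum differed by only 1.32 times between the libraries.

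The mucosal defence list, which also holds Pigr, Itln1, Ccl25 and Il18, had 18 of 22 probes detected, 9 of them under 100 CPM. Cfb, complement factor B, had 935 ± 192 CPM, and Il33, an alarmin, 534 ± 173 CPM. Pla2g2a, a bactericidal phospholipase of Paneth cells, had 709, 1088 and 348 CPM, lowest in replicate 3, and Nos2, the inducible nitric oxide synthase, 220.3, 425 and 537 CPM, highest there. Camp, Ltf, Muc1 and Tslp were at background. Of 29 complement probes, 14 were at background, including Hc, C9, Mbl2, Masp1 and Masp2. Hc encodes C5, which NOD mice lack, and its probe measured 17.2 CPM. C1qbp, a mitochondrial protein named for binding C1q, led that list with 4247 ± 241 CPM.

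Receptors for interferons were detected in every control library, while type I interferons were at or near background. Ifngr1, the binding chain for interferon gamma, had 7391, 6999 and 6849.8 CPM, and Ifngr2 1163 ± 339 CPM. Ifnar1 and Ifnar2, which bind type I interferon, had 1162 ± 150.4 CPM and 233 ± 27.4 CPM. Ifna1 and Ifna2 were at background with 15.4 CPM each, and Ifnb1 had 22.3 ± 18.8 CPM. Among 20 interferon response genes, 18 were detected. Irf1, a factor induced by interferon gamma, had 4693, 6392 and 8759 CPM, and Irgm1, a GTPase of defence against intracellular microbes, 1932, 2494 and 4027 CPM. Mx1, an antiviral GTPase, had 239, 308 and 627 CPM. These 3 were highest in replicate 3, as were 13 of the 18 (36.1% of all probes), while Ddx58, which encodes the RNA sensor RIG-I, was even at 1743, 1761 and 1633 CPM.

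Microbial sensing genes were nearly all detected, 36 of 38, while 25.4% of all endogenous probes were at background. The most abundant were regulators of NF-kB, namely Nfkbiz at 3874 ± 1130.2 CPM and Nfkbia at 3841 ± 477 CPM, and the kinases Tbk1 at 3478 ± 973 CPM and Chuk at 3399 ± 879.8 CPM. Among receptors, Cd14 stood above Tlr3, the sensor of double-stranded RNA, which had 670.4, 951 and 1651 CPM. Tlr8 and Nod2 were at background with 17.7 and 5.20 CPM. Tollip, an inhibitor of the pathway, had 1852 ± 206 CPM. Tnfaip3, which encodes the inhibitor A20, varied widely, with 2428, 1391 and 438 CPM.

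Interleukin genes were mostly at background. Of 33 interleukin probes 19 were at background, including Il2, Il4, Il5, Il6, Il17a, Il17f and Il25, beside 25.4% of all endogenous probes. Il18 led, followed by Il33 and by Il16 at 273 ± 224 CPM. Il15, which sustains intraepithelial lymphocytes, had 122, 161 and 266 CPM, and Il7 47.9, 65.2 and 131 CPM. Both were highest in replicate 3, where the lymphocyte markers were lowest. Of 27 chemokines 10 were at background. Besides Ccl5, Ccl25 and Xcl1, Ccl6 had 6444 ± 1659 CPM and Ccl9 1809 ± 403 CPM. Among 20 chemokine receptors, 9 were at background, and the leading members were Cxcr4 with 3582, 1394 and 297 CPM, Cxcr6 with 1963, 1293 and 423 CPM and Ccr9, the receptor for CCL25, with 1551, 1114 and 279.9 CPM. That list spread most of all 24, with sums 5.60 times apart.

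Receptor and kinase genes of JAK-STAT signalling had 35 of 43 detected, and their sum varied by only 1.08 times. Il10rb, a receptor chain for IL-10 and related cytokines, had 2689 ± 588 CPM, and Il2rg, the common gamma chain of lymphocytes, 4037, 3069 and 691 CPM. Il2rg was lowest in replicate 3. Il13ra1, a receptor chain for IL-13, was highest there, with 1189.9, 2209 and 3991 CPM. Jak1, a kinase shared by many cytokine receptors, was low in replicate 1 alone, with 268, 1658 and 1436 CPM. Of 22 genes of the TNF superfamily, 20 were detected, led by the death ligand gene Tnfsf10 at 1691 ± 145 CPM and Tnfrsf14 at 1289 ± 167 CPM. The TGF-beta list had Tgfbr1 at 846 ± 144 CPM, with Tgfb1 and Tgfb2 at background. Casp8, an initiator caspase, had 275, 772 and 1444 CPM. Abcb1a, the drug efflux pump of enterocytes, was the steadiest of the transporter list at 2363, 2349 and 2267 CPM, and Ahr was at background.

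The spread among the 3 control libraries was far wider than counting error. Over the 349 probes above background in all of them, the median coefficient of variation (CV, SD over mean) was 36.5%, with quartiles of 18.6% and 58.1%, while counting alone gives a median of 8.10%. For 269 of these probes (77.1%) the CV was more than 2 times the counting value. Without replicate 3 the median fell to 19.7%, without replicate 1 it was 29.6% and without replicate 2 39.4%. In log2(CPM + 1) across probes, which are no independent replicates, replicates 1 and 2 correlated at 0.967, replicates 3 and 2 at 0.928 and replicates 3 and 1 at 0.886. Between replicates 1 and 2, 35 of the 349 probes differed by more than 2 times, against 163 between replicates 3 and 1. The class with 1000 to 10000 CPM had the lowest median CV, at 23.5%, and that with 100 to 1000 CPM had 43.5%.

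**Figure D4:**
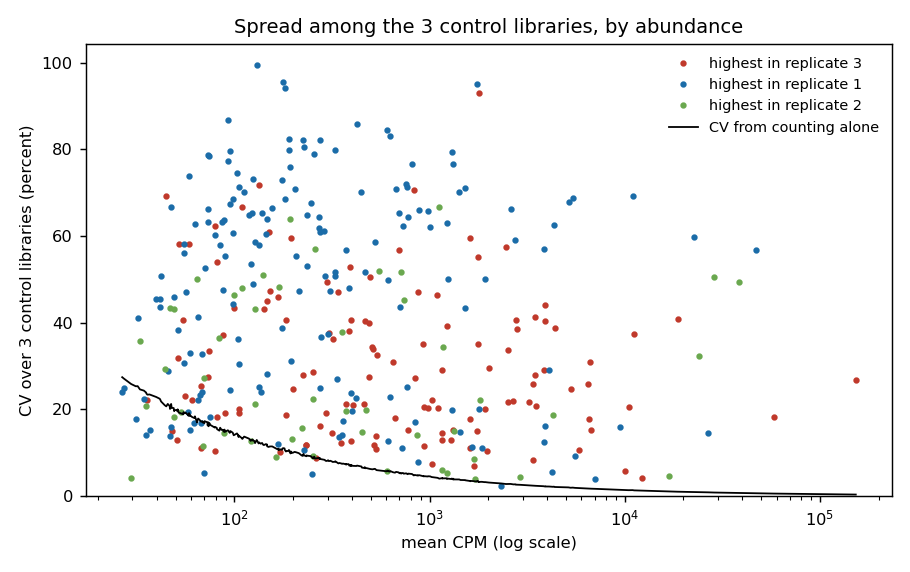
CV over the 3 control libraries (percent) against mean CPM (log scale) for the 349 probes above background in all 3, coloured by the library with the highest level. The black line is the CV that counting alone gives. Most points lie far above it, up to 99.4%.

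A pair of opposite orders of the libraries covered most of the probes. The share of the spread that they hold was not computed. Of the 349 probes, 150 were highest in replicate 1 and lowest in replicate 3, and 88 were highest in replicate 3 and lowest in replicate 1. Among the probes with at least 100 CPM, 9 of the 10 widest were highest in replicate 1 and lowest in replicate 3, and they were mainly lymphocyte genes. Thy1, a T cell surface protein, had 273, 96.1 and 21.2 CPM. Cybb, an oxidase subunit of phagocytes and B cells, had 1128, 674 and 84.9 CPM. Cdkn1a, the cell cycle inhibitor p21, was the reverse, with 273, 1521 and 3566 CPM. It was the only one of the 10 widest that was highest in replicate 3.

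At the other end, 23 of the 349 probes had a CV under 10%. Among those with at least 100 CPM, Abcb1a had a CV of 2.24%, below its counting value of 2.92%. Ifngr1 had 3.95%, Ddx58 4.03%, Cd164 4.29% and Mif 4.54%. Irak3, a brake on Toll-like receptor signalling, Prim1, C1qbp and Smad5 were also among the 10 steadiest of the 261 probes with at least 100 CPM. The 14 housekeeping genes had a median CV of 20.04%, below the 36.5% of the 349 endogenous probes. The sets differ in level, since counting alone gives a median of 2.85% for housekeeping genes and 8.10% for the 349 probes. Endogenous probes with 1000 to 10000 CPM had a median CV of 23.5%. The CV was more than 2 times the counting value for 12 of 14 housekeeping genes (85.7%), beside 77.1% of the 349 probes. Tubb5, a tubulin, spread by 48.8% and Ppia, a peptidyl-prolyl isomerase, by 34.6%, while Eef1g, a translation elongation factor, had 6.57%. Together they took 19.0%, 21.1% and 24.5% of counts in replicates 1, 2 and 3.

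The control libraries were then set against the 6 antibiotic and transfer libraries in 1 edgeR fit, with the mean of both groups as comparator. The labels do not say whether the mice given cecal material had antibiotics first. Of 470 genes tested 8 were called (1.7%), 2 higher in control (0.426%) and 6 lower (1.28%), each at an edgeR adjusted p of 0.0458. Higher was Cd14, with 1712, 1673 and 2355 CPM in control, 778, 483 and 785 CPM in antibiotic and 719, 1007 and 693 CPM in transfer libraries, a log2 difference of 1.32 ± 0.27 (SE). Itln1 was higher, with a log2 difference of 1.35 ± 0.29 and a mean of 23923 CPM in control, 8304 CPM in antibiotic and 9605 CPM in transfer libraries. No antibiotic or transfer library reached any control library in either gene, though both were picked by p in these same libraries.

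Lower in control was Ptgs2, the inducible cyclooxygenase, with 33.5, 29.3 and 7.72 CPM in control, 219, 207 and 103 CPM in antibiotic and 66.7, 100.3 and 81.5 CPM in transfer libraries, a log2 difference of -2.44 ± 0.54 (SE). Only 2 of 3 control libraries were above background for it. Klrd1 was lower, with a log2 difference of -1.65 ± 0.38 and a mean of 1241 CPM in control, 3561 CPM in antibiotic and 3836 CPM in transfer libraries. Ms4a1 differed by -1.88 ± 0.43, Itga4, the alpha 4 integrin by which lymphocytes enter the gut, by -1.82 ± 0.41, H60a, a ligand of the receptor NKG2D, by -1.86 ± 0.43, and Gpr183, a receptor that positions B and T cells, by -1.87 ± 0.43. Ms4a1 had 1293, 743 and 295 CPM in control libraries, against 1848 to 3488 CPM in antibiotic and 1609.5 to 3135 CPM in transfer libraries. H60a had 512, 479 and 129 CPM in control, against 1046 to 1892 CPM in antibiotic and 963 to 1456 CPM in transfer libraries. Itga4 and Gpr183 averaged 83.7 ± 30.5 and 127 ± 74.4 CPM in control, 325 ± 54.8 and 497 ± 96.4 CPM in antibiotic, and 257 ± 90.6 and 393 ± 79.02 CPM in transfer libraries (SD, n = 3 each). In these 6 genes every control library lay below every other library. All 8 called genes were picked by p in these same libraries, so such separation adds no support. How many of the 470 tested genes separate in this way was not counted. Tap1 at 1.78 ± 0.43 and Pla2g2a at 1.497 ± 0.36 were next and did not pass (edgeR adjusted p = 0.0565 for each).

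**Figure D5:**
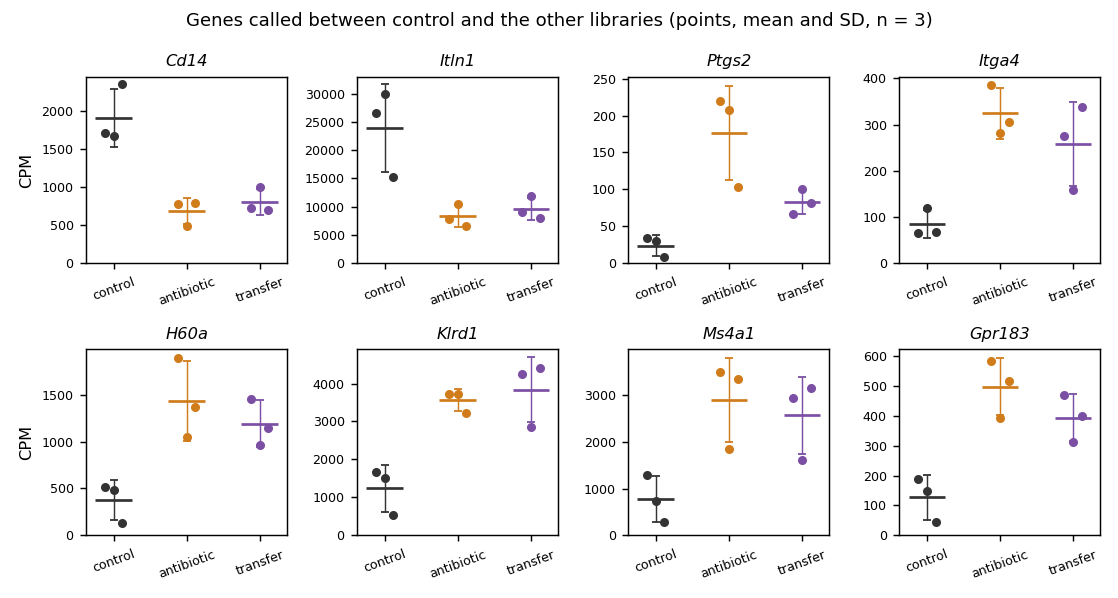
CPM of the 8 called genes in control, antibiotic and transfer libraries, with a point per library and a line and bar for the mean ± SD (n = 3 per group). Cd14 and Itln1 are higher in control and the other 6 are lower. The genes were picked by p in these same libraries.

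The sum of cytotoxic markers lay between 52372 and 163822 CPM in control, 204145 and 208186 CPM in antibiotic, and 186957 and 260921 CPM in transfer libraries. In that list 0 members passed higher and 1 lower, Klrd1, of 19 tested, and 12 lay lower at an unadjusted p under 0.05 (18.3% of all genes did), with a median log2 difference of -1.02, beside -0.05 over all 470 genes. Of 17 B cell members tested 1 passed, Ms4a1, 9 lay lower at an unadjusted p under 0.05, and the median was -1.03. Of 16 T cell members 0 passed and 8 lay lower by that measure, with a median of -0.91. Of 14 chemokine receptors 0 passed and 7 lay lower, with a median of -0.92. The share of all genes beside these is the same 18.3%. Interferon response genes had a median of 0.76 with 0 of 18 passing, although 8 had an unadjusted p under 0.05 and lay higher in control (10.9% of all genes did). Epithelial markers summed to between 91925 and 115254 CPM in control, 78561 and 91784 CPM in antibiotic, and 50903 and 101489 CPM in transfer libraries, and housekeeping genes took 19.0% to 24.5%, 15.4% to 18.1% and 15.05% to 18.0% of counts. The part of lymphocyte content and of the housekeeping share in these calls was not tested. The number of calls changed with single libraries. It was 58 genes without control replicate 1, 47 without transfer replicate 2 and 8 without control replicate 3, with 7 shared. It was 0 without control replicate 2, without any 1 antibiotic library, or without transfer replicate 1 or 3. Without adjustment 137 genes (29.1%) had an edgeR p under 0.05, and DESeq2 called 93 after adjustment. With housekeeping scaling, with spike-in scaling, with no filter on low counts and with the replicate number as a block, edgeR called 0 genes each, and 126, 53, 150 and 131 had an unadjusted p under 0.05.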

How the data were processed

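RNA of ileal epithelial cells was extracted with TRIzol and cleaned on columns, per the labels' protocols, then hybridised to an nCounter mouse panel, in which colour-coded probes are counted without amplification. The deposited library files hold unnormalised counts per probe for 547 endogenous, 14 housekeeping, 8 negative-control and 6 positive spike-in probes, classed per the file headers; the counting software is not given in the sources used here. A deposited signal table equals these counts times 1 factor per library, 7047 over the mean housekeeping count, found from its values and not used for results.

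CPM, ranks, CVs and list sums were computed with pandas 2.3.3. Of 561 panel genes, 558 matched a RefSeq gene of GRCm38.p6. Genes were tested with edgeR 4.0.16 quasi-likelihood (R 4.3.3, TMM, 3 groups, 6 residual degrees of freedom, Benjamini-Hochberg at 0.05) where counts exceeded background in at least 3 of 9 libraries; 470 remained. The test was checked on simulated data. No 2 control libraries agreed within sampling noise (chi-square per degree of freedom of 30.9 or more). Members, the 24 lists (391 panel genes, some in several lists) and tests were chosen with earlier results of these data known. Named genes were the 30 most abundant, leading and background members of each list, the 10 steadiest and 10 widest probes, and the 10 smallest p; further list members, such as Tlr3, Cd4 and Ifng, were chosen after their values were seen. Alternatives were other background limits, scalings, filters, tools (DESeq2 1.42.0, limma 3.58.1), a replicate block and leaving out each library. Counts cover counting error only in the counting CV. Some genes that the rule names are not reported here.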

Additional observations from a re-analysis of the deposited data

How the results depend on the processing

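The number of detected probes depended little on the background limit, and the leading probes little on any 1 library. The number of probes above background in all control libraries was 322 to 354 under other background limits, and the same 10 probes led without any 1 replicate. With 1 control replicate left out it was 353 to 389, a number that could not fall below the 349 of the main setting. The class under 100 CPM held 88 to 128 probes and the median CV was 19.7% to 39.4% when 1 replicate was left out, the lowest of each without control replicate 3. A probe then had to be above background in both remaining libraries, which is stricter. The probes at background thus numbered 158 to 194, against 139 in the main setting, and the class under 100 CPM lost probes to them. With spike-in scaling the median CV was 73.7%. Under background subtraction and housekeeping scaling, 1 of the single-probe and list levels moved by more than its SD, the complement sum, at 6444 CPM after background subtraction. Leaving out 1 of 3 libraries cannot move a mean by more than the SD of those 3, so this measure could show no shift there. Single levels did shift without control replicate 1. Thy1 went from 130 to 58.7 CPM and Cd3e from 10980 to 7106 CPM, while Cdkn1a went from 1787 to 2544 CPM.

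For control against the other libraries, no direction of the 10 genes with the smallest p reversed. DESeq2 called 93 genes (32 higher in control, 61 lower), limma-voom 13 (3 and 10) and upper-quartile factors 23 (17 and 6). The filter at mean + 3 SD gave 11 (5 and 6). Housekeeping scaling, spike-in scaling and no filter gave 0 each, with 126, 53 and 150 genes at an unadjusted p under 0.05. These scalings moved the median of all genes to -0.39 with housekeeping genes, 0.87 with spike-ins and 0.11 with upper quartiles. With 1 library left out the counts ran from 0 to 58, with 0 to 31 higher and 0 to 38 lower. With the replicate number as a block 0 genes were called and 131 had an unadjusted p under 0.05; same-numbered libraries correlated between -0.49 and 0.34 in their deviations from the group mean, and 1 of 9 libraries correlated best with its own number, so the numbers do not pair them. The causes were not tested. A 95% interval of a log2 difference, taken with the 6 residual degrees of freedom alone, had a median half-width of 1.06. The edgeR test also borrows degrees of freedom across genes, so its own intervals were narrower. Either way the width limits what 3 libraries a group can show.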

Other observations

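Genes in none of the lists numbered 156, and Mif, Cd164, Tfrc and Xbp1 in the top class are among them. Dpp4, a brush border peptidase, had 1989.6, 3569 and 4857 CPM in control replicates 1, 2 and 3, and Mme, the peptidase neprilysin, 1748, 2572 and 3967 CPM. Cd9, a tetraspanin, had 673, 1575 and 2597 CPM. Btnl1, a butyrophilin-like gene through which mouse gut epithelium sustains its gamma delta T cells, had 1099, 1357 and 1496 CPM, and Btnl2 had 551, 446 and 552 CPM.

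Of checkpoint genes, Ctla4, an inhibitory T cell receptor, had 414, 243 and 81.1 CPM, and Cd274, which encodes PD-L1, 433, 311 and 257 CPM. Nox1, an epithelial oxidase, had 479, 357 and 145 CPM. These genes were chosen after their values were seen, and none of them was among the 8 genes called between control and the other libraries.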
